A study of Mus musculus with 6 samples.

Results

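Natural killer (NK) cells kill target cells by releasing granules that hold perforin, which opens the target's membrane, and granzymes, the proteases that enter and start cell death. They also kill through Fas ligand, and they signal to other immune cells with interferon gamma and chemokines. The T-box transcription factors Eomes and T-bet (Tbx21) drive NK cell development and the effector programme. The 9 genes examined here were chosen by symbol for these roles, with earlier results of these data known. They are the granule proteases Gzma and Gzmb, the pore protein Prf1, the granule membrane protein Nkg7, the cytokine Ifng, the death ligand Fasl, the chemokine Xcl1, which attracts Xcr1-bearing dendritic cells, and the regulators Eomes and Tbx21. All 9 were found among the 31053 genes of the expression matrix.

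The cells were CD45+ leukocytes sorted from the tumor-bearing right hemisphere of female SCID mice, which lack mature T and B cells but keep NK cells. Mice carried intracranial xenografts of U87, an established human glioma line, that expressed IL-33 (3 mice, taken 3 weeks after implantation) or carried the empty pcDNA vector (3 mice, taken 6 weeks after). Each mouse received 50000 cells at 8 weeks of age, while the age label of the samples reads 6 to 8 weeks. Transcripts were counted as unique molecular identifiers (UMIs) in droplets on the 10× Chromium platform. The 6 libraries were joined in 1 matrix whose barcodes end in a suffix from 1 to 6 that no label ties to a mouse. All values below therefore describe 1 pooled sample. IL-33-expressing and pcDNA xenografts were not compared, and no p-value was computed.

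NK cells were defined without the 9 genes, as barcodes with a UMI of at least 2 of the 4 receptor genes Klrb1c, Klrd1, Klre1 and Ncr1. This found 206 NK cells among 38751 barcodes that passed the filters of 201 to 2500 genes and under 5% mitochondrial counts (0.532%, exact 95% interval 0.462 to 0.609%). Of these 206 cells, 96.1% held a UMI of Ncr1 and 94.7% of Klrd1, and Cd3e, Cd8a, Cd4 and Cd79a were at 0 UMIs in all of them. The T cell receptor segment Trbc2 was nevertheless counted in 23.3%. Other lymphocyte genes were found in fewer of these cells, Cd79b in 10, Cd3g in 8, Trac in 4 and Cd3d in 3. The T cell gate was also met by 4 of the 206 cells. Both monocyte markers, Ly6c2 and Ccr2, were found in 20. Per suffix, 9745192 to 24393841 UMIs were counted in all barcodes and 3, 6, 8, 20, 68 or 101 NK cells were found (suffixes 3, 1, 5, 2, 4 and 6). RNA of microglia, which made up 86.8% of barcodes by their own markers, was present in many NK cells, since 87 of the 206 also met the microglial gate and only 114 held at most 1% of counts on Cst3, C1qa, C1qb, C1qc, P2ry12 and Tmem119. These 114 cells are called NK cells low in microglial RNA below, and their values are given beside the results they change. Of the 29579 barcode sequences, 3890 occurred under more than 1 suffix. They covered 14722 of all 40411 barcodes (36.4%), with 509 to 3428 sequences shared by each pair of suffixes. The cause of this sharing was not tested. Among NK cells 11 had such a sequence, and without them each member's share of NK cells with a UMI stayed inside its interval.

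The regions before the starts of Gzma, Gzmb, Prf1 and Xcl1 are shown because Gzma was found in most cells with Gzmb or Prf1, whereas Xcl1 was most frequent in cells without Gzma (below). They are bases 250 to 11 before the start in RefSeq (GRCm38.p6), 5′ to 3′ on the gene's strand. Capitals mark the letters TGTGGT or their reverse complement, the core bound by Runx factors, and AGGTGT or its reverse complement, a half-site of T-box factors.
Gzma: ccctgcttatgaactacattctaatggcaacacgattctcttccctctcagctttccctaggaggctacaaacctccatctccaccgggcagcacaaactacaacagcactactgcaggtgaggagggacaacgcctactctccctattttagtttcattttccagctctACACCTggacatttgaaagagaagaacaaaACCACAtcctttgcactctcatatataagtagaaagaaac
Gzmb: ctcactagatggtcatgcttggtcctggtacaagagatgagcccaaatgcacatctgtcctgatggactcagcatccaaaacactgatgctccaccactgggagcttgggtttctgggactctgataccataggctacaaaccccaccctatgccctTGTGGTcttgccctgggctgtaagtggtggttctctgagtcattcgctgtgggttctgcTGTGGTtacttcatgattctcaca
Prf1: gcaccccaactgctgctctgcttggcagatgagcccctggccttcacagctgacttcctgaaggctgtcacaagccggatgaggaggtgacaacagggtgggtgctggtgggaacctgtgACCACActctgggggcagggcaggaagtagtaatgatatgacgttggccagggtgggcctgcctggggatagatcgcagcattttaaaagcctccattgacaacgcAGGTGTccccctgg
Xcl1: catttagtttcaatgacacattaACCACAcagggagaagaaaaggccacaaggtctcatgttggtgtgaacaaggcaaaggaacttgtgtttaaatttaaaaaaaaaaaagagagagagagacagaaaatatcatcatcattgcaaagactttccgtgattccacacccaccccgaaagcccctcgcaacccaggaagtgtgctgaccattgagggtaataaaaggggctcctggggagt
The windows lie at chr13:113100992-113101231 (minus strand) for Gzma, chr14:56262345-56262584 (minus strand) for Gzmb, chr10:61297586-61297825 (plus strand) for Prf1 and chr1:164935533-164935772 (minus strand) for Xcl1. Over the full 250 bases the Runx letters occurred in 5 of the 9 genes (Xcl1, Nkg7, Prf1, Gzma and Gzmb) and in 14.0% of all 32851 RefSeq windows of the same length. The T-box letters occurred in 3 of the 9 (Nkg7, Prf1 and Gzma) and in 11.8% of all windows. In Gzma they lay 80 to 75 bases before the start and the Runx letters 50 to 45 bases before it, in Prf1 24 to 19 and 130 to 125 bases before it. Gzmb held the Runx letters at 93 to 88 and at 34 to 29 bases, and Xcl1 at 227 to 222 bases, and no matches overlapped. Letters are a description of the sequence, and binding was not measured. The RefSeq starts can differ from the GENCODE coordinates printed for the genes below. The Nkg7 window (43436888 to 43437127) runs past the GENCODE start at 43437073, so its T-box letters lie inside that gene. For Gzmb, on the minus strand, the GENCODE gene ends at 56262260 and the window begins at 56262345. Runx3, the Runx factor typical of cytotoxic lymphocytes, was itself counted at 113 CPM (UMIs per 1000000 UMIs of the same cells) in NK cells and at 0.271 CPM in microglia-gated cells.

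All 9 genes were far higher in NK cells than in microglia-gated cells, at a similar pooled median depth (2595 UMIs in NK cells and 2643 in microglia-gated cells). Depth was uneven among NK cells, with a median of 1766 UMIs in those low in microglial RNA and 4833 in the other 92. The CPM ratio of the 9 genes lay between 805 for Xcl1 and 4088 for Gzma. Of all 12859 genes with at least 20 UMIs over both gates, 2.75% reached a ratio of 10, and all 9 of the genes examined here did. Ifng, Fasl, Eomes and Tbx21 had only 6, 4, 4 and 3 UMIs in microglia-gated cells. They passed the limit of 20 UMIs through NK cells alone, which fixed their ratio above 10 in advance, so their calls give no support. The members were chosen with earlier results of these data known, so the calls of the others are a description and give no support either. Intervals below cover counting error only, and levels in single suffixes are given further on.

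Gzma and Nkg7 were the highest of the 9 genes. Gzma, the tryptase-like granzyme on chromosome 13 (113093825 to 113100981), was at 5859 CPM in NK cells (exact Poisson 95% interval 5677 to 6046) and at 1.43 CPM in microglia-gated cells, and ranked 9th of all genes in NK cells by UMIs. A Gzma UMI was found in 161 of 206 NK cells (78.2%, exact binomial interval 71.9 to 83.6%) and in 0.184% of microglia-gated cells. Its median was 16.5 UMIs per NK cell, with up to 74 in a single cell. Nkg7, a membrane protein of cytotoxic granules (chromosome 7, 43437073 to 43438249), was the most widespread, with a UMI in 201 NK cells (97.6%, 94.4 to 99.2%) at 2242 CPM (2129.9 to 2359) and a median of 7 UMIs per cell. Gzmb, the granzyme that cleaves after aspartate (chromosome 14, 56258838 to 56262260), was at 613 CPM (555 to 676) in 52.4% of NK cells (45.4 to 59.4%). Prf1, perforin (chromosome 10, 61297833 to 61304680), was at 470.2 CPM (419 to 525), below Gzmb, yet was found in more cells (63.6%, 56.6 to 70.2%). The UMIs of Gzmb lay in fewer cells, and the 10 highest cells held 32.4% of its UMIs against 23.4% for Prf1 and 15.6% for Gzma.

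Xcl1 (chromosome 1, 164931644 to 164935527), the chemokine also called lymphotactin, was at 609 CPM (551 to 671), which did not differ from Gzmb beyond counting error. It was found in only 73 NK cells (35.4%, 28.9 to 42.4%), and 10 cells held 51.0% of its UMIs, with 64 in a single cell. Its variance of UMIs per cell was 17.2 times the mean, against 14.8 times for Gzma. The value for Xcl1 includes the cell with 64 UMIs, and the ranking was not repeated without that cell. By the share of UMIs in the 10 highest cells Gzma was far more even, at 15.6%. Ifng (chromosome 10, 118441046 to 118445892), the cytokine that activates macrophages and microglia, was at 116 CPM (91.6 to 145.0) in 25.7% of NK cells. Fasl (chromosome 1, 161780689 to 161788495), which kills cells that carry Fas, was at 115 CPM (90.2 to 143), indistinguishable from Ifng, in 29.6%. Both were mostly single UMIs, 1 UMI in 39 of 53 cells with Ifng and in 49 of 61 with Fasl. Of the regulators, Eomes (chromosome 9, 118478212 to 118486132) was at 166 CPM (136 to 199.8) in 35.9% of NK cells and Tbx21 (chromosome 11, 97098071 to 97115331) at 42.2 CPM (28.0 to 61.0) in 12.1%. The order of levels was Gzma, Nkg7, Gzmb, Xcl1, Prf1, Eomes, Ifng, Fasl and Tbx21. The intervals of neighbours overlapped for Gzmb and Xcl1, for Eomes and Ifng, and for Ifng and Fasl. Without suffix 6 the order changed, with Xcl1 at 328 CPM, below Gzmb at 567 CPM and Prf1 at 443 CPM. Each count is a 3′ tag of a transcript and does not grow with its length.

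**Figure D1:**
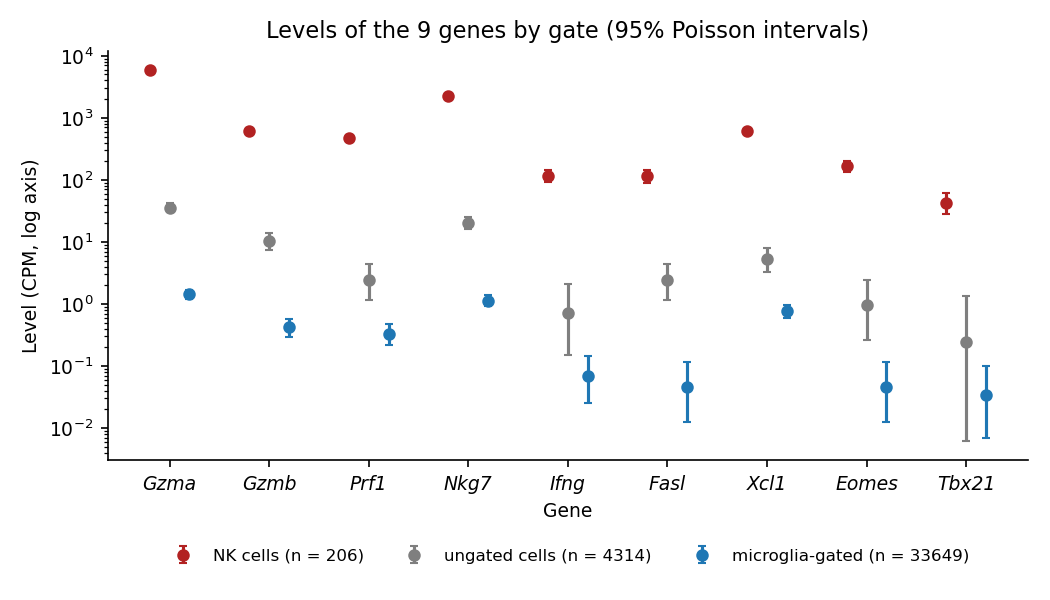
Level of the 9 genes (CPM on a log axis, points with exact Poisson 95% intervals) in NK cells, ungated cells and microglia-gated cells. Every gene sits highest in NK cells, between 42.2 CPM for Tbx21 and 5859 CPM for Gzma, and at or below 1.43 CPM in microglia-gated cells.

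In the NK cells low in microglial RNA every level was higher, by 1.37-fold for Xcl1 to 1.85-fold for Eomes, while the share of cells with a UMI stayed within the interval for each of the 9 genes. Gzma reached 9946 CPM in these 114 cells against 3814 CPM in the other 92, and was found in 78.9% and 77.2% of cells. The median depth was 1766 UMIs in the former and 4833 in the latter. Levels in CPM thus moved with the microglial RNA in the barcode, and its part in them was measured here only by leaving cells out. When each cell was thinned to 500 UMIs, shares fell to 67.5% for Gzma, 68.0% for Nkg7, 26.2% for Gzmb, 25.7% for Prf1, 17.96% for Xcl1, 13.1% for Eomes, 6.80% for Ifng, 4.85% for Fasl and 1.46% for Tbx21. In thinned microglia-gated cells the highest share among the 9 was 0.0446% (Nkg7). The shares of Ifng, Fasl and Tbx21 fell the most in proportion, so that cells without their UMIs cannot be read as cells without expression at this depth.

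Between 81.6% (Xcl1) and 93.3% (Gzma) of each gene's UMIs lay in NK cells, although these were 0.532% of barcodes. For Gzma, Gzmb and Xcl1, much of what lay elsewhere was in a few barcodes, whereas Ifng, Fasl, Eomes and Tbx21 had at most 2 UMIs in any cell outside the NK gate. In microglia-gated cells, 57 of the 62 with Gzma held 1 UMI, and 4 cells held 68 of the 127 UMIs. In these cells 1 barcode held 30 of the 37 UMIs of Gzmb and 1 barcode held 35 of the 67 UMIs of Xcl1. Of the 4314 ungated cells only 8 held Gzma, with 148 UMIs between them. Outside the NK gate 18 cells carried at least 3 of the 9 genes, of which 11 were ungated and 6 microglia-gated, and 15 of the 18 had a UMI of exactly 1 of the 4 NK markers, so that they fell just short of the rule. Gzma and Prf1 were higher in cells with more NK markers. Gzma was at 0.852 CPM in cells with 0 markers, 95.6 CPM with 1, 4026 CPM with 2, 5882 CPM with 3 and 8328 CPM with 4. Prf1 ran from 0.108 CPM with 0 markers to 13.9, 352, 465 and 647 CPM with 1, 2, 3 and 4. Xcl1 did not follow this order among NK cells, at 710.5 CPM (2 markers), 693 CPM (3 markers) and 224 CPM (4 markers), nor did Ifng, at 92.4, 134 and 95.8 CPM.

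Other leukocytes held few of these transcripts. In the 168 monocytes 7 of the 9 genes were at 0 UMIs, and Nkg7 was at 3.94 CPM and Fasl at 1.31 CPM. A count of 0 there allows up to 3.94 CPM. Among 10 T cell-gated barcodes, 5 held Nkg7 (27 UMIs), 3 held Ifng and none held Gzma, Gzmb or Prf1. Gzmb was also counted in 3 of 12 barcodes of the mast cell and basophil gate (7 UMIs, 309 CPM, interval 124 to 637), in which Gzma and Prf1 were at 0.

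The libraries with at least 20 NK cells (suffixes 2, 4 and 6) differed little for most genes. Gzma was at 8754 CPM in suffix 2, 5514 CPM in suffix 4 and 5436 CPM in suffix 6. Nkg7 was at 2899.7, 2207 and 2017 CPM and Gzmb at 565, 490 and 655 CPM in the same order. Prf1 was at 529, 388 and 495 CPM, Eomes at 219, 136 and 169 CPM, Ifng at 109, 92.1 and 120.2 CPM and Fasl at 109, 116 and 117 CPM. Gzma and Nkg7 were above the other suffixes in suffix 2 beyond counting error, which leaves out the spread between cells. The 20 NK cells of suffix 2 were also shallower, at a median of 1884 UMIs against 2438.5 and 2711 in suffixes 4 and 6. For Gzmb, Prf1, Eomes, Ifng and Fasl the intervals overlapped between all 3 suffixes, and Tbx21 had 2, 6 and 16 UMIs. By level Xcl1 differed most, at 146 CPM (62.99 to 287) in suffix 2, 398 CPM (316 to 494) in suffix 4 and 861 CPM (767 to 964) in suffix 6. These intervals also leave out the spread between cells, and 64 of its 301 UMIs in suffix 6 lay in a single cell. The intervals of its share of cells overlapped between all 3 suffixes, at 3.21 to 37.9%, 21.5 to 44.8% and 32.8 to 52.8%. Without suffix 6 the pooled level of Xcl1 was 328 CPM in place of 609 CPM. The remaining suffixes held 3 to 8 NK cells each, in which Gzma was at 5469 to 8959 CPM. Other genes varied more among these few cells. Prf1 was at 250 to 996 CPM, and Gzmb at 0 UMIs in suffix 3 and 710 CPM in suffix 5. In suffix 1 Gzmb was at 1443.5 CPM (967 to 2073), above suffixes 2, 4 and 6 with intervals apart. That value rests on 29 UMIs in 6 cells, 15 of them in a single cell, and the intervals leave out the spread between cells.

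**Figure D2:**
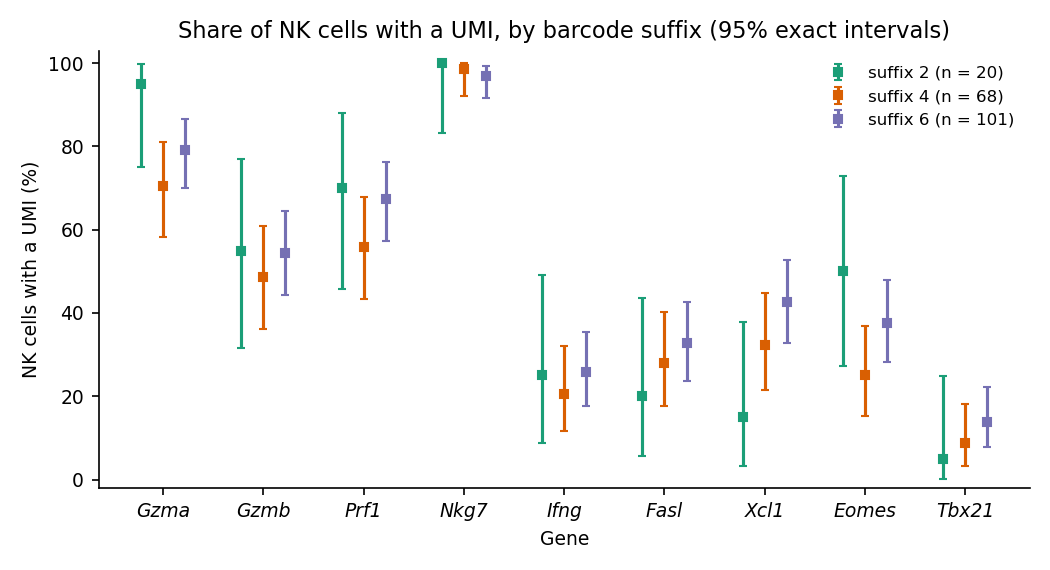
Share of NK cells with a UMI of each gene (percent, with exact 95% intervals) in the 3 barcode suffixes with at least 20 NK cells. Nkg7 is near the top in all 3, and Xcl1 runs from 15% in suffix 2 to 32.4% in suffix 4 and 42.6% in suffix 6, with overlapping intervals. Eomes runs from 25% to 50% and Gzma from 70.6% to 95%, also with overlapping intervals.

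Single NK cells usually carried several of the genes. The median was 4 of the 9 per cell, 183 of 206 cells (88.8%) carried at least 3, and 2 cells carried none. Of microglia-gated cells 99.5% carried none and 6 of 33649 carried 3 or more. Of the lytic genes Gzma, Gzmb and Prf1, all 3 were found in 77 NK cells (37.4%, 30.8 to 44.4%), 2 of them in 70, 1 in 29 and none in 30 (14.6%, 10.0 to 20.1%). After thinning to 500 UMIs the median fell to 2 genes per cell.

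Gzma was found in most cells with Gzmb or Prf1, and in a lower share of cells with Xcl1 than of cells without it. Of the 131 cells with Prf1, 122 (93.1%, 87.4 to 96.8%) held Gzma, against 52.0% (40.2 to 63.7%) of those without Prf1. Of the 108 cells with Gzmb, 91.7% held Gzma, against 63.3% of those without Gzmb. Thinned to 500 UMIs, Gzma kept separate intervals, at 86.8% with and 60.8% without Prf1, and 90.7% with and 59.2% without Gzmb. Gzmb was found in 61.1% of cells with Prf1 (52.2 to 69.5%) and 37.3% of those without (26.4 to 49.3%). No difference between Gzmb and Prf1 was detectable after thinning to 500 UMIs. There Gzmb was in 28.3% of cells with Prf1 (16.8 to 42.4%) and 25.5% of those without (18.8 to 33.2%). Of the 73 cells with Xcl1, by contrast, 50.7% (38.7 to 62.6%) held Gzma, against 93.2% (87.5 to 96.9%) of the 133 without Xcl1. Gzmb and Prf1 also had lower shares in cells with Xcl1, at 37.0% and 47.9% against 60.9% and 72.2%, with intervals apart. After thinning to 500 UMIs these intervals overlapped (10.8% against 29.6% for Gzmb, 18.9% against 27.2% for Prf1), while those for Gzma stayed apart (27.0% against 76.3%). Nkg7 was found in 98.6% of cells with Xcl1 and in 97.0% of those without. Ifng and Fasl were spread over both, since 24.7% and 31.5% of cells with Xcl1 held them against 26.3% and 28.6% of those without. UMIs of Eomes and Tbx21 were found together in 10 cells, of Eomes alone in 64, of Tbx21 alone in 15 and of neither in 117. Tbx21 was found in 13.5% of cells with Eomes and 11.4% of those without, with overlapping intervals. With 28 UMIs of Tbx21 in all NK cells, a cell without its UMI cannot be read as a cell without expression.

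**Figure D3:**
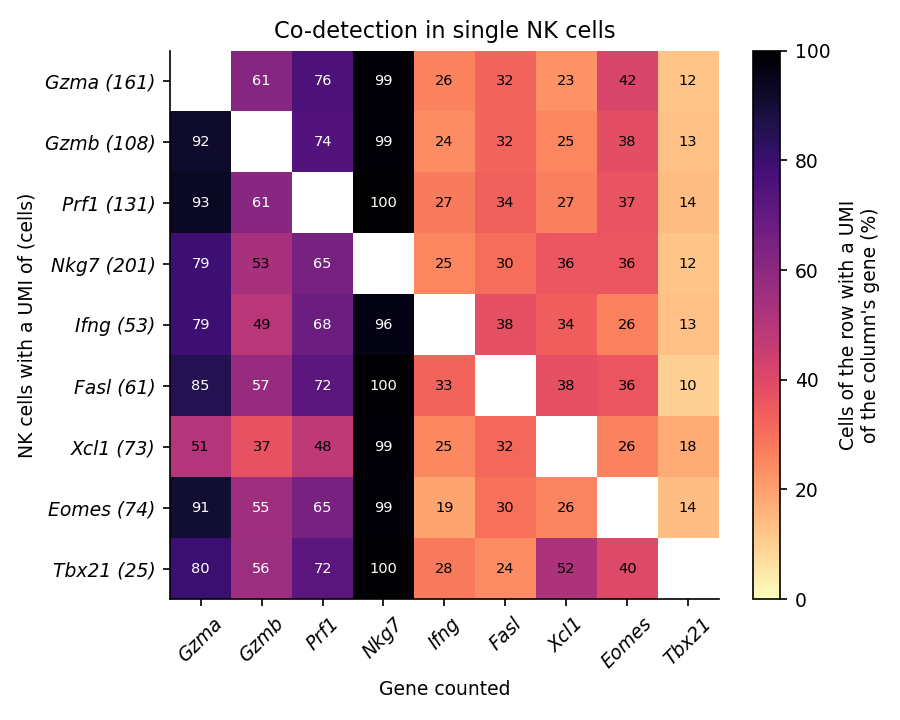
Share of the NK cells with a UMI of the row's gene that also held a UMI of the column's gene (percent, number of cells in brackets). The Xcl1 row is lowest for Gzma at 50.7% and for Prf1 at 47.9%, while the rows of Gzmb and Prf1 reach 91.7% and 93.1% for Gzma.

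The separation was also graded in the amount of Gzma. Across NK cells with 0, 1 to 9, 10 to 29 and 30 or more Gzma UMIs (45, 27, 82 and 52 cells), Xcl1 was at 1628, 640.0, 289.7 and 39.7 CPM. Prf1 took the opposite course, at 86.0, 309, 487 and 952 CPM, and so did Gzmb at 98.3, 298, 595 and 1388 CPM. Nkg7 was at 1573 CPM in cells without Gzma and 3523 CPM in those with 30 or more UMIs, and Eomes at 98.3 and 218 CPM. Ifng showed no such order, at 129, 88.3, 88.8 and 165 CPM. Without suffix 6, which was left out after the data were seen, Xcl1 was lower but in the same order, at 901, 287, 98.5 and 11.3 CPM. The cells numbered 24, 15, 34 and 32, and the last value rests on 1 UMI. There Prf1 was at 22.5, 375, 394 and 949 CPM and Gzmb at 45.05, 110.3, 645 and 1243 CPM. Without the single cell with 64 Xcl1 UMIs, Xcl1 was at 1256 CPM in cells without Gzma. The median depth of the same groups was 3210, 2601, 2404 and 2252 UMIs, so that the cells richest in Gzma were the shallowest.

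**Figure D4:**
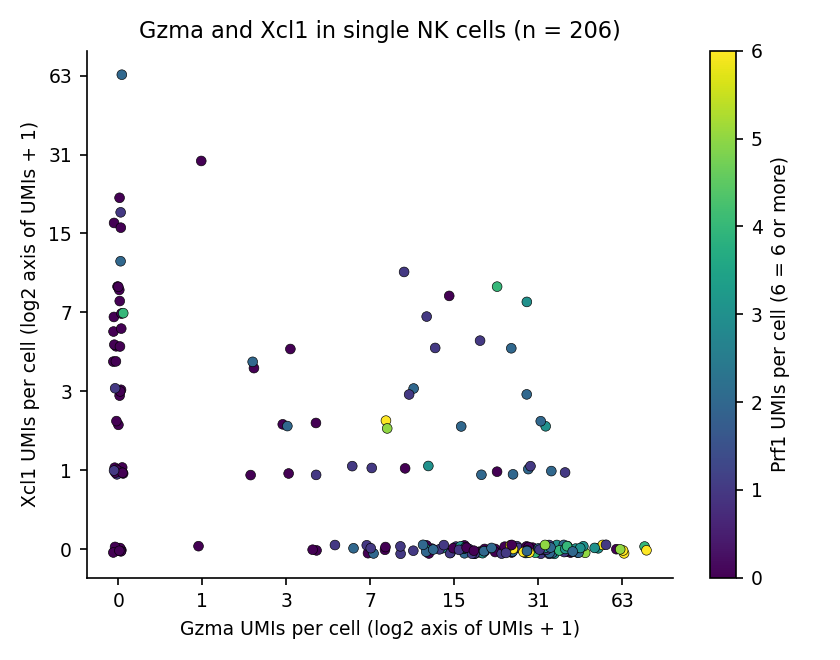
UMIs of Gzma and Xcl1 in each of the 206 NK cells (log2 axes of UMIs + 1, points jittered, color for UMIs of Prf1). Cells with many Gzma UMIs lie along the bottom edge and cells with many Xcl1 UMIs along the left edge, with 37 cells holding both, 124 only Gzma, 36 only Xcl1 and 9 neither.

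The 161 NK cells with and the 45 without a Gzma UMI were then described gene by gene. The division uses a member's own counts and was chosen after its values were seen, so it gives no test and no cell type name. Of the other 8 members, Prf1 (75.8% against 20%), Gzmb (61.5% against 20%) and Eomes (41.6% against 15.6%) had a higher share in cells with Gzma with intervals that did not overlap. Xcl1 had a lower one (23.0%, 16.7 to 30.3%, against 80.0%, 65.4 to 90.4%). For Nkg7, Ifng, Fasl and Tbx21 the intervals overlapped. Over all 6813 genes with at least 10 UMIs in NK cells, 0.396% were higher in cells with Gzma by this rule and 1.82% in cells without it, the latter being the deeper group (median of 3210 against 2354 UMIs).

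The difference in Prf1 and Xcl1 was present in both suffixes with more than 1 Gzma-negative cell among those of at least 20 NK cells. In suffix 4 Xcl1 was found in 18.8% of 48 cells with Gzma and 65.0% of 20 without, and in suffix 6 in 30% of 80 and 90.5% of 21. Prf1 was found in 75% and 10.0% in suffix 4 and in 76.2% and 33.3% in suffix 6. In the NK cells low in microglial RNA (90 with Gzma, 24 without) Xcl1 was at 21.1% and 83.3% and Prf1 at 74.4% and 4.17%. With every cell thinned to 500 UMIs and the division kept, Xcl1 was at 8.70% and 51.1% and Prf1 at 31.7% and 4.44%, whereas Eomes, at 14.3% and 8.89%, no longer had separate intervals. Nor did Eomes in the NK cells low in microglial RNA (45.6% against 20.8%).

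Genes of 10 lists around the effector programme, chosen with earlier results of these data known, were read in the same way, as a description. Of the other granzymes, only Gzmc, a neighbour of Gzmb on chromosome 14 (56231441 to 56234656), was above 10 UMIs in NK cells. Its 110 UMIs lay in 12 cells, with up to 37 in a single cell, and it was found in 1.86% of cells with Gzma and 20% of cells without. Of these 12 cells 10 held Xcl1, 3 held Gzma and 1 held Prf1, against 35.4%, 78.2% and 63.6% of all NK cells. All 12 held Ncr1 and Nkg7, but so did most NK cells (96.1% and 97.6%), and Ncr1 is a marker of the NK gate. Gzmd, Gzme, Gzmf, Gzmg and Gzmn were at 0 UMIs, which is uncertain for these closely related genes because reads that fit several copies can be lost in counting.

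Genes that load and release granules were counted in NK cells with and without Gzma. All 11 genes of this list had at least 10 UMIs, from Lyst (16.6 CPM), a regulator of lysosome size, to Lamp1 (558 CPM), a lysosomal membrane protein. Of the 11, 4 reached a ratio of 10 to microglia-gated cells (2.75% of all genes did), namely Ctsw (a protease of cytotoxic cells, 478 CPM, ratio 2490.1), Serpinb6b, Serpinb9 (the inhibitor that guards against granzyme B, 170.3 CPM, ratio 27.9) and Stx11 (a fusion protein, ratio 84.3). Lamp1 and Ctsc, the protease that activates granzymes, were lower in NK than in microglia-gated cells (ratio 0.520 and 0.515), and in NK cells low in microglial RNA they fell to 158 and 122 CPM. For all 11 the intervals of the shares with and without Gzma overlapped in all NK cells. In those low in microglial RNA Ctsw was apart, at 52.2% with and 87.5% without Gzma.

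Among cytokines and chemokines Ccl5 was the highest (11482 CPM, ratio 406), in 99.4% of cells with Gzma and 77.8% of cells without. Ccl4 (85.1% and 40.0%) and Ccl3 (79.5% and 46.7%) followed the same direction, although both were also high in microglia-gated cells (3762 and 2166 CPM). Tnf was at 166 CPM in all NK cells but at 13.6 CPM in those low in microglial RNA. Receptors for these products were unevenly present in the other cells. Ifngr1, a chain of the receptor for interferon gamma, was at 537 CPM in microglia-gated cells and 469 CPM in monocytes. Fas was at 1.14 CPM in microglia-gated cells and 19.7 CPM in monocytes, and Xcr1, the receptor for Xcl1, at 29.5 CPM in the 32 dendritic cells, whose gate counts Xcr1 among its markers.

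Receptors for cytokines that prime NK cells were counted in cells with and without Gzma. Il2rb, the chain for IL-2 and IL-15, was the highest gene specific to NK cells in this list (526 CPM, ratio 1793), Il18r1 was at 129.6 CPM and Stat4, which acts downstream of IL-12, at 85.9 CPM. All 7 genes of this list with at least 10 UMIs had shares with overlapping intervals in the cells with and without Gzma, but in NK cells low in microglial RNA Il2rb did not (68.9% against 95.8%). Il1rl1, the receptor for IL-33, was at 0 UMIs in the 206 NK cells, which allows up to 4.52 CPM. Of the cycling genes Mki67 had 1 UMI and Top2a 7, and only Stmn1 (93.4 CPM) passed 10 UMIs, in 24.8% of cells with Gzma and 4.44% of cells without. In NK cells low in microglial RNA its intervals overlapped (17.8% against 8.33%).

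Genes of NK maturation were read beside the 0.396% of all genes higher in cells with Gzma and the 1.82% higher in cells without. The lists were chosen with earlier results of these data known, so their counts are a description and give no support. Of the 7 genes of the mature list, Cma1 (chymase 1), Klrg1 (an inhibitory receptor of mature NK cells) and S1pr5 (the receptor that guides their exit from tissue) were higher in cells with Gzma, at 42.9% against 0.0%, 29.8% against 2.22% and 21.7% against 0.0%, the intervals of the other 4 overlapped, and none was higher in cells without. Of those 4, Cx3cr1, Itgam and Zeb2 were also high in microglia-gated cells, at 1757, 319 and 304 CPM. Cx3cr1 fell from 903 CPM in all NK cells to 27.1 CPM in those low in microglial RNA. The 0 of 45 cells for Cma1 and S1pr5 allows a share of cells with a UMI of up to 6.67% at 3 counts, and of up to 7.87% by the exact interval. Of the 7 genes of the immature list with at least 10 UMIs, Emb (22.4% against 66.7%), Ltb (47.2% against 80.0%), Cd7 (29.2% against 57.8%) and Thy1 (17.4% against 46.7%) were higher in cells without Gzma, and the intervals of the other 3 overlapped. Of the 6 such genes of the list for type 1 innate lymphoid cells, 5 were higher in cells without Gzma, namely Cxcr6 (3.73% against 31.1%), Itga1 (3.11% against 17.8%), Inpp4b, Tmem176a and Tmem176b, and Il7r was not. The last 2 are also microglial genes (486 and 711 CPM in microglia-gated cells). In NK cells low in microglial RNA 4 of 5 genes of that list kept separate intervals and Itga1 did not. The 45 cells are called NK cells only because they met the NK gate. No gate for type 1 innate lymphoid cells was used, and the 45 cells are given no other cell type name. Of the 8 transcription factors Klf2 was higher in cells with Gzma (87.6% against 64.4%) and Bhlhe40 in cells without (46.0% against 73.3%). In NK cells low in microglial RNA the intervals for Klf2 overlapped (78.9% against 50%).

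**Figure D5:**
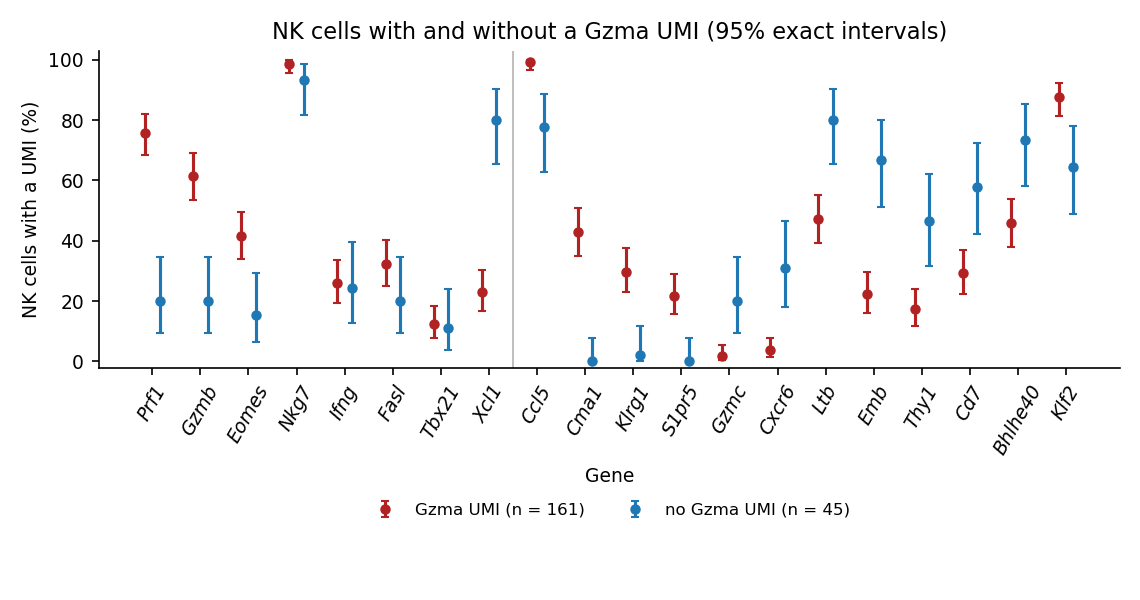
Share of NK cells with a UMI (percent, exact 95% intervals) among 161 cells with and 45 cells without a Gzma UMI, for the 8 other members (left of the line) and 12 genes of the lists chosen after their values were seen. Prf1, Gzmb, Eomes, Cma1, Klrg1 and S1pr5 are higher in cells with Gzma, and Xcl1, Gzmc, Cxcr6, Ltb, Emb, Thy1, Cd7 and Bhlhe40 in cells without.

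The genes whose pattern was most like that of each member were found over 23 sums of cells (gate by suffix, at least 20 cells, 3 of them NK cells), by Pearson correlation of log2(CPM + 1) among 4646 genes. Most of any correlation here is the contrast of the 3 NK sums with the other 20. For Gzma these were Nkg7 (r = 0.96), Il2rb (0.96) and Gzmb (0.95). For Prf1 they were Gimap4, Sh2d2a and Ncr1, and for Gzmb Gimap4, Klri2 and Il18r1. For Fasl they were Sh2d1a, Ctsw and Sh2d2a. Ifng, Eomes and Tbx21 shared Gimap7 among their leading 3 genes, a GTPase of lymphocytes. Xcl1 had the lowest leading correlation of the 9 (Ncr1, 0.93). Ncr1, also listed for Prf1, is 1 of the 4 genes that define the NK gate. Its contrast between NK sums and the others was set by that rule, so its place gives no support.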

How the data were processed

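CD45+ cells of 3 IL-33-expressing and 3 pcDNA xenografts were profiled. Reads were processed by the authors with Cell Ranger 3.1 (alignment to mm10) and the libraries joined. Per the submitters' processing notes Seurat 3.1.5 was used afterwards. The deposited matrix holds raw UMI counts, whole numbers before filtering. The annotation release is not given in the sources used here. No columns name a sample, so the 6 suffixes together count as 1 pooled sample and none serves as a replicate. The filters for barcodes in the methods were applied (over 200 and at most 2500 genes, under 5% mitochondrial counts). They kept 38751 of 40411 barcodes. No doublet caller was run, and NK cells with microglial RNA or a second gate were left out as alternatives. A barcode with NK markers counted as an NK cell first. Microglia needed 4 of Tmem119, Gpr34, Olfml3, P2ry12, Cx3cr1 and Selplg and no other gate.

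CPM, computed here, divides a gene's UMIs by the total UMIs of the same cells, times 1000000. Exact Poisson and binomial 95% intervals cover counting error only. A count of 0 allows up to 3 counts, and ratios to microglia-gated cells used at least 3 counts. The members and gene lists were chosen with earlier results of these data known. Genes named are the 9 members, list genes with at least 10 UMIs in NK cells, and for each member the 3 most correlated genes. List genes below 10 UMIs and those singled out in the figure were chosen after their values were seen. Python 3.11.15, numpy 2.4.6, scipy 1.17.1 and pandas 2.3.3 were used, and the ratios and correlations were tested on simulated data. Coordinates are from GENCODE (GRCm38), with mm10 the same assembly.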

Additional observations from a re-analysis of the deposited data

Results flagged for a closer look

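The barcodes removed by the filters also carried the effector genes. Of the 1660 removed barcodes, 132 met the NK rule, 126 of them with over 2500 genes and 6 with 5% or more mitochondrial counts. In these 132 Gzma was at 1441 CPM (Poisson interval 1379 to 1506), above the limit that a count of 0 allows, with a median depth of 10362.5 UMIs. Of the 132, 128 also met the microglial markers. They were not used in the main results. With every barcode kept, Gzma was found in 68.6% of NK cells in place of 78.2%, and Prf1 in 55.3% in place of 63.6%. Xcl1 was found in 44.97% in place of 35.4%. These shares lay outside the intervals of the filtered cells, and those of the other members stayed inside. The removed NK-gated barcodes thus held a UMI of Gzma and Prf1 less often, and of Xcl1 more often, than those kept. They were also deeper, at a median of 10362.5 UMIs against 2595, and depth raises the share of cells with a UMI. With every barcode kept the level of Xcl1 was 586 CPM in place of 609 CPM, inside its interval. The level of Gzma was 2858 CPM in place of 5859 CPM, and that of Prf1 229 CPM in place of 470 CPM. Xcl1 was still more frequent in cells without Gzma (83.96%) than with it (27.2%).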

How the results depend on the processing

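No paired analysis was made, since the suffixes name no sample, and no result comes from a test. The number of NK cells was 338 without filters, 114 when cells with over 1% microglial counts were left out, and 105 to 203 when each suffix was left out. The share with Prf1 among NK cells with Gzma was 33.1% and 46.6% when cells were thinned to 500 and 1000 UMIs. Among cells without Gzma it was 4.08% when thinned to 1000 UMIs, 4.17% in NK cells low in microglial RNA and 8.33 to 28.0% without each suffix. The share with Xcl1 among cells with Gzma was 7.19% and 14.4% when thinned, with Gzma called after thinning, and 16.0 to 24.8% without each suffix. Among cells without Gzma it was 40.3% and 55.1% when thinned and 70.8 to 92.0% without each suffix. In each of these settings Xcl1 was more frequent, and Prf1 less frequent, in cells without Gzma. All 9 genes reached the ratio to microglia-gated cells at 5-fold, 20-fold and without a minimum of UMIs. For Ifng, Fasl, Eomes and Tbx21 the calls at 5-fold and 20-fold were fixed by the minimum of 20 UMIs. The calls of the other members are a description, since the members were chosen with earlier results of these data known. Without filters, levels of the 9 genes were 0.466 to 0.962 of those given. With a pseudocount of 10 CPM 15 of the 27 most correlated genes stayed. Leaving out shared barcodes was added after the data were seen. It put the level of Gzma at 6053 CPM, just above its interval, and kept the levels of the other members inside theirs. For equal weights, suffix 2 was left out among cells without Gzma, since it held 1.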
